A study of Mus musculus with 2 samples.

Results

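A set of genes of complement and scavenging in macrophages, C1qa, C1qb, C1qc, Clec4f, Vsig4, Timd4, Cd5l, Marco, Cd163 and Mrc1, was followed in single cells from mice with 4T1 liver metastases. It holds 10 of the 32285 genes counted, chosen by name. The unique molecular identifiers (UMIs, 1 per captured transcript) of these genes were described in macrophages, taken as barcodes with a sum of C1qa, C1qb and C1qc of at least 5 UMIs, and in other cell classes. This rule gave 324 macrophages among 9591 barcodes of the library labelled liver and 611 among 4830 of the library labelled spleen.

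The mice were female BALB/cAnNCrl animals of 7 to 8 weeks whose livers had been seeded with the luciferase-marked mammary carcinoma line 4T1 through the spleen, part of which was then removed. Cells were taken 5 days after hepatic arterial infusion of vehicle or CBL0137, a curaxin that disturbs chromatin, with 2 mice pooled per group. Every group carried the tumor, and each library mixed 3 groups told apart by hashtags (antibodies with an oligonucleotide barcode): A0301 for vehicle, A0305 for the low dose and A0310 for the high dose. Neither the labels nor the methods tie an amount of drug to low or high dose. The methods and the labels both list these 3 hashtags, though the methods name only A0301 and A0310 where they describe the staining. The methods describe CD11b+ bead-isolated cells and the labels leukocytes, and both libraries held T and B cells. The hashtag oligos that assign the groups are shown because every comparison by dose rests on them.
A0301, vehicle: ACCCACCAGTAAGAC
A0305, low dose: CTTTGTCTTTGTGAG
A0310, high dose: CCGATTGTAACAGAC

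The tissue labels did not match the transcripts. The library labelled liver held 0 barcodes of the hepatocyte class and 0 of the sinusoidal endothelial class, and Clec4f, the defining transcript of Kupffer cells, had 0 UMIs there. The library labelled spleen held 137 hepatocyte and 454 sinusoidal endothelial barcodes and 4602 Clec4f UMIs. The names of the deposited matrices give the tissues the other way round from the labels. The libraries are therefore called the library labelled liver and the library labelled spleen throughout, and no difference between them is read as one between organs. They shared 15 barcodes, of which 0 were macrophages of the library labelled liver and 3 macrophages of the library labelled spleen.

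Each group was 1 pooled sample per library, so no difference could be tested against the spread between mice. Intervals are 95% and cover counting error only: exact Poisson for UMIs scaled to a total of 1000000 (CPM), exact conditional binomial for ratios, and Clopper-Pearson for shares. A gene was called past 2-fold when its log2 ratio of CPM reached 1.0 in size with at least 20 UMIs over both groups.

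C1q is the recognition molecule of the classical complement pathway, a hexamer of A, B and C chains that binds immune complexes, apoptotic cells and some pathogens. Unlike most complement proteins, which hepatocytes secrete, it is made mainly by macrophages and some dendritic cells. Kupffer cells, the macrophages within liver sinusoids, add receptors that take particles from the blood: Clec4f, a C-type lectin, Vsig4, a receptor for C3 fragments, and Timd4, a receptor for phosphatidylserine on dying cells. Cd5l is a secreted inhibitor of macrophage apoptosis, Marco is a class A scavenger receptor for bacteria and particles, Cd163 takes up hemoglobin bound to haptoglobin, and Mrc1 is the mannose receptor, which liver sinusoidal endothelium carries too.

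The C1q genes lie side by side on the minus strand of chromosome 4 (GRCm38, GENCODE M21): C1qb at 136880129 to 136886187, C1qc at 136889804 to 136893065 and C1qa at 136895917 to 136898803, with 3616 and 2851 bases between neighbours. Clec4f lies at chr6:83644542-83656187 and Cd163 at chr6:124304656-124330527. Marco lies at chr1:120474538-120505024, Mrc1 at chr2:14229392-14332057, Cd5l at chr3:87357881-87371073, Timd4 at chr11:46810800-46844332 and Vsig4 at chrX:96247203-96293438. All 10 are protein-coding, and the UMIs were counted per gene, so no exon or isoform can be told from another.

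RefSeq promoter windows (GRCm38.p6) were at hand for 9 of the 10 genes. Those printed are of the neighbouring C1qb and C1qc, which the class rule used, and of Clec4f, which separated the libraries. Another is of Marco, which differed most between the groups. Capitals mark GAGGAA or its reverse complement TTCCTC, the core bound by the macrophage factor PU.1, and TGCTGA or its reverse complement TCAGCA, the half-site of MAF factors. The sequences run 5′ to 3′ on the minus strand and stop where RefSeq or GENCODE places the first exon.
C1qb, chr4:136886201-136886450: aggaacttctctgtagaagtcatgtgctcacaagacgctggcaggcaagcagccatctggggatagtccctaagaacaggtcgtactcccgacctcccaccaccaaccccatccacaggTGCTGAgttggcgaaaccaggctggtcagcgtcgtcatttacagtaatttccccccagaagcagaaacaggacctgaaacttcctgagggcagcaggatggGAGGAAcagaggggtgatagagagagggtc
C1qc, chr4:136893066-136893164: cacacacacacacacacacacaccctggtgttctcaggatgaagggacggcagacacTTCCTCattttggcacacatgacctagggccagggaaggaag
Clec4f, chr6:83656188-83656366: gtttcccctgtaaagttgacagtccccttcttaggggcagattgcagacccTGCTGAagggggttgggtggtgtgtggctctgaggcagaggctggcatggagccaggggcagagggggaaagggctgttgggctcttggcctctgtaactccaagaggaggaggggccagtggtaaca
Marco, chr1:120505025-120505274: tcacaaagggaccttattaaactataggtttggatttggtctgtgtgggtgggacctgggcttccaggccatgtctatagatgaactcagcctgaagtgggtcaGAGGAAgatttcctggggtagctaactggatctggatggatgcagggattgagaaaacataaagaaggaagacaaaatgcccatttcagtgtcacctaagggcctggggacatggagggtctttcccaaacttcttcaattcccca
On either strand of the 250 bases before the RefSeq start, the first set of letters stood in 6 of the 9 members and the second in 4. Over 32851 windows of the same length, 23.3% held the first and 16.1% the second. The letters did not overlap in the printed windows, and a match describes the sequence without showing a bound site.

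Members that the class rule did not use lay mostly in macrophages, with Mrc1 of the library labelled spleen as the clearest exception. Macrophages of that library held between 94.9% (Vsig4) and 97.0% (Clec4f) of the UMIs of Clec4f, Vsig4, Cd5l, Marco and Cd163 and 90.2% of those of Timd4, but 58.6% of the Mrc1 UMIs. Sinusoidal endothelial cells held 30.3% of the Mrc1 UMIs, at 830 CPM (782 to 881) against 360 CPM (344 to 375) in macrophages. Macrophages of the library labelled liver held 90.9% of the UMIs of Cd5l, 90.4% for Cd163, 86.3% for Marco, 85.2% for Mrc1 and 62.1% of the 66 Timd4 UMIs, while Clec4f had none. The shares of C1q UMIs, 93.0 to 94.2% and 97.9 to 98.0%, are set by the rule.

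**Figure D1:**
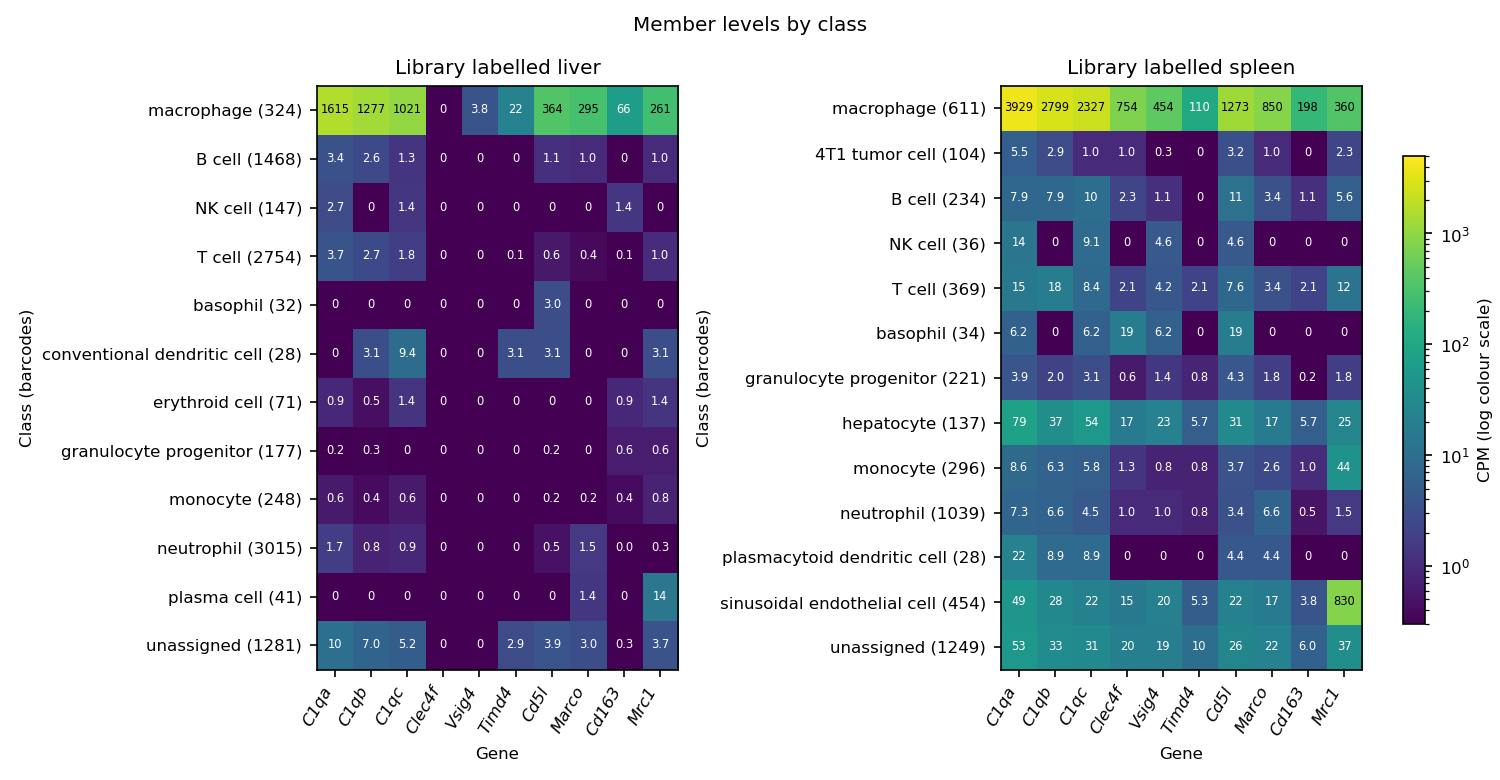
Level of each member (CPM, logarithmic colour scale, value printed in each cell) in the classes with at least 20 barcodes (numbers in brackets) of both libraries. The macrophage rows carry the highest values of all members but Mrc1 in the library labelled spleen, where sinusoidal endothelial cells reached 830 CPM against 360, and Clec4f in the library labelled liver, which was 0 throughout.

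The level outside macrophages was low in cells that should lack these genes, but the class rule limits it in part. Barcodes with enough C1q UMIs for the rule were classed as macrophages even where they carried T or B cell markers. The C1q levels of T and B cells are thus capped by the rule. Its part in their levels of the other members was not tested. T and B cells of the library labelled liver (4222 barcodes, median 4459.5 UMIs) had 3.62 CPM of C1qa, 0.742 of Cd5l and 0.556 of Marco. Those of the library labelled spleen (603 barcodes, median 3432 UMIs) had 13.2, 8.58 and 3.37 CPM, and 2.14 of Clec4f. A Clec4f UMI was seen in 0.663% of these T and B cells (0.181 to 1.69) against 39.4% of macrophages (35.5 to 43.4, median 4839 UMIs). With each barcode thinned to 1000 UMIs, 31.4% of 525 macrophages and 2.09% of sinusoidal endothelial cells had one, and 86 shallower macrophages were left out.

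The class rests on a cut through a range. Sums of 3 or 4 C1q UMIs were seen in 56 barcodes of the library labelled liver and 109 of the library labelled spleen, just below it, and sums of 5 or 6 in 52 and 72, just above. Sums of 10 or more were seen in 216 and 478. Of macrophage genes that the rule did not use, Adgre1 had a UMI in 32.7% and 51.6% of the macrophages, against 0.213% and 1.49% of T and B cells. The lysosomal glycoprotein gene Cd68 had one in 53.1% and 63.8%, against 2.06% and 5.97%. Adgre1 was about as frequent just above the cut as just below it. It had a UMI in 5.77% and 11.1% of barcodes with 5 or 6 C1q UMIs and in 7.14% and 9.17% with 3 or 4. With 10 or more it had one in 41.7% and 62.1%. Cd68 and Marco also differed little across the cut. From 3 or 4 to 5 or 6 C1q UMIs, Cd5l rose from 32.1% and 31.2% to 40.4% and 40.3%. Mrc1 rose from 16.1% and 17.4% to 40.4% and 22.2%, and Clec4f of the library labelled spleen from 22.0% to 41.7%.

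Many macrophage barcodes also carried transcripts of other cells. At least 3 of the 6 markers of another class were detected in 138 of 324 (42.6%) macrophages of the library labelled liver, most often those of T cells (76 barcodes, 23.5%) and neutrophils (31 barcodes). Of those of the library labelled spleen, 239 of 611 (39.1%) did so, led by monocyte (77), T cell (53) and sinusoidal endothelial markers (38). The median number of markers detected was 1 of 6 for monocytes in the library labelled spleen and 0 for every other class in both. Some of these markers moved with dose: neutrophil markers summed to 5718, 3562 and 136 CPM in vehicle, low and high dose macrophages of the library labelled liver, and endothelial markers to 46.0, 216 and 378 CPM in the library labelled spleen. Granulocyte progenitor markers summed to 110, 363 and 1884 CPM in the former, and 4T1 tumor cell markers to 10.5, 101 and 456 CPM in the latter. Their part in the values below was not tested, except where values without such barcodes are given.

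The C1q chains stood in similar proportions in the macrophages of both libraries. Of the C1q UMIs in macrophages, C1qa made up 41.3% and 43.4%, C1qb 32.6% and 30.9%, and C1qc 26.1% and 25.7% in the libraries labelled liver and spleen. In the 126 C1q UMIs of T cells of the library labelled liver the shares were 45.2%, 32.5% and 22.2%, each with an interval that held the value of the macrophages. In the library labelled spleen, the 131 C1q UMIs of sinusoidal endothelial cells gave 49.6%, 28.2% and 22.1%, again with intervals that held the macrophage shares. C1qb departed from this in T cells of that library (44.0% of 100 UMIs, 34.1 to 54.3) and in neutrophils of the library labelled liver (23.0% of 113 UMIs, 15.6 to 31.9).

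C1q levels within the class follow in part from the rule and are given as a description. C1qa, the A chain, had 1335, 2119 and 1048 CPM in 88 vehicle, 73 low dose and 54 high dose macrophages of the library labelled liver. C1qb was at 1045, 1656 and 876 CPM and C1qc at 884, 1332 and 667 CPM. All 3 chains were thus highest at the low dose and lowest at the high dose there. The library labelled spleen gave 3734, 3738 and 4238 CPM of C1qa in 79, 136 and 160 macrophages. C1qb was at 2625, 2706 and 2921 CPM and C1qc at 2307, 2228 and 2502 CPM. Log2 ratios of low dose to vehicle were 0.59 to 0.67 in the former library and -0.05 to 0.04 in the latter, and those of high dose to vehicle -0.40 to -0.26 and 0.12 to 0.18. The high dose sign did not hold across the alternatives in either library: C1qa ranged from -0.61 to 0.54 and from -0.12 to 0.40.

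**Figure D2:**
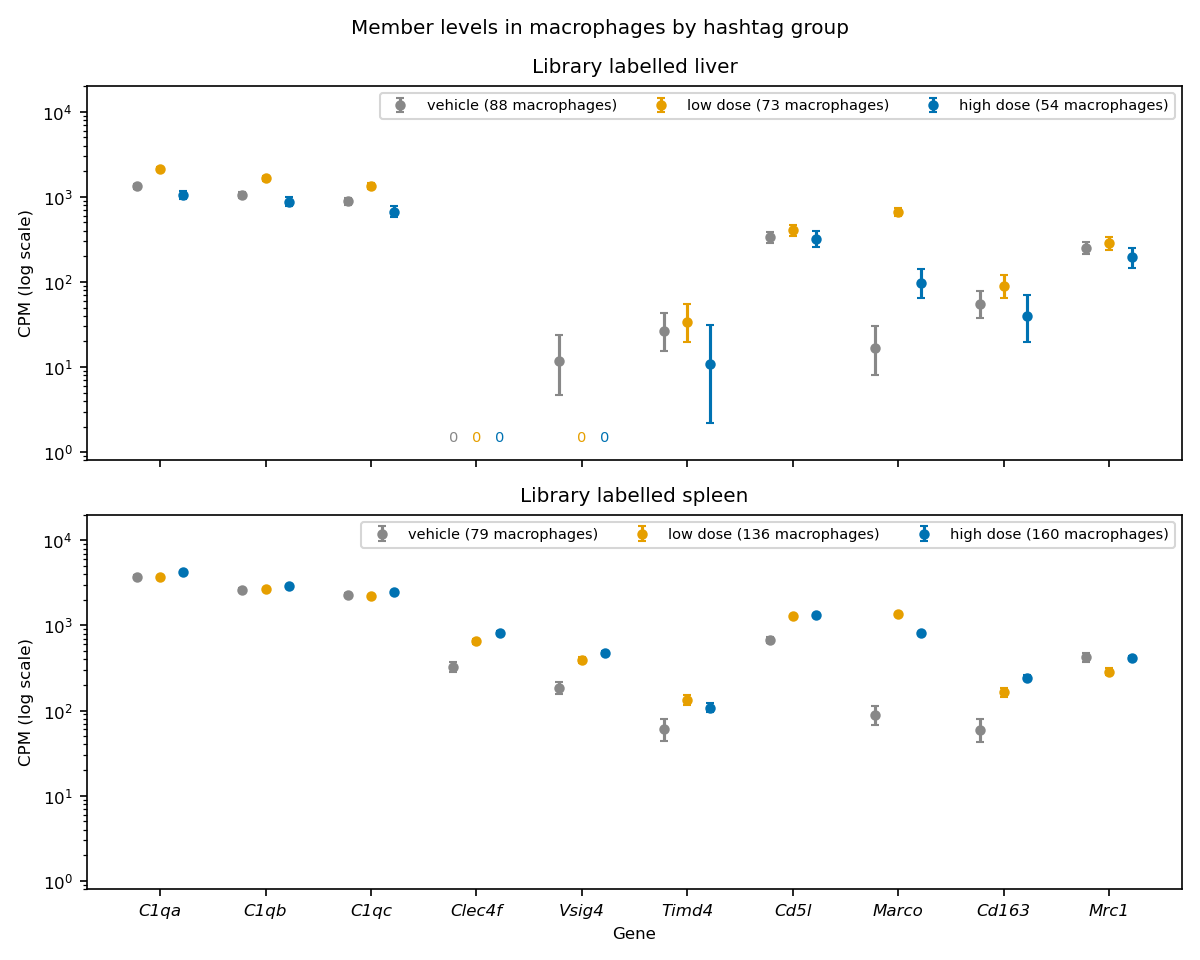
CPM of each member (logarithmic axis) in vehicle, low dose and high dose macrophages of both libraries, with exact 95% Poisson intervals that cover counting error only and 0 written where no UMI was seen. Marco stands lowest in vehicle in both libraries, at 16.7 and 88.0 CPM, and the C1q genes differ little between groups of the library labelled spleen.

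The Kupffer cell receptors were seen almost only in the library labelled spleen and were higher in both dosed groups. Clec4f was at 326 CPM (286 to 369) in vehicle, 653 (613 to 695) at the low dose and 821 (787 to 856) at the high dose, with a UMI in 17 of 79, 41 of 136 and 66 of 160 macrophages. The log2 ratio to vehicle was 1.00 (0.80 to 1.21) at the low and 1.33 (1.14 to 1.53) at the high dose, so the low dose value lay on the 2-fold line. Without macrophages that carried 3 or more markers of another class these were 0.03 and 0.60. Where monocyte and dendritic cell markers were allowed, they were 0.64 and 1.13.

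Vsig4 followed Clec4f, at 185, 390 and 472 CPM, with log2 ratios of 1.08 (0.81 to 1.35) and 1.35 (1.10 to 1.61). Timd4 was at 60.4, 133 and 108 CPM, with log2 ratios of 1.14 (0.67 to 1.64) and 0.84 (0.39 to 1.32). The low dose was thus the higher of the dosed groups for Timd4, while the intervals of its levels, 115 to 153 and 96.1 to 121 CPM, overlapped. Where barcodes with 3 or more markers of a class other than monocytes and dendritic cells were left out, Vsig4 was at 0.77 and 1.07, and Timd4 at 0.78 and 0.39 (-0.10 to 0.91 at the high dose), so both were under the 2-fold line at the low dose. Cd5l was at 680, 1283 and 1325 CPM, with log2 ratios of 0.92 (0.78 to 1.06) and 0.96 (0.83 to 1.10), just under the 2-fold line. With the same barcodes left out it was at 0.59 and 0.75. Over the 12 alternatives the lowest low and high dose ratios were 0.17 and 0.19 for Vsig4 and 0.25 and -0.16 for Timd4. They were -0.02 and 0.21 for Cd5l and 0.03 and 0.56 for Clec4f.

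Clec4f had 0 UMIs in the 324 macrophages of the library labelled liver, with an exact Poisson upper limit of 1.996 CPM. Vsig4 had 7 UMIs, all in vehicle macrophages and 6 of them in 1 barcode. Timd4 had 16, 16 and 3 UMIs in the vehicle, low and high dose groups. Cd5l, by contrast, was at 333, 403 and 323 CPM with a UMI in 60.2%, 58.9% and 61.1% of the macrophages, with log2 ratios whose intervals held 0 (0.27, -0.02 to 0.57, and -0.05, -0.42 to 0.32). Without barcodes that carried markers of other classes, monocytes and dendritic cells aside, the high dose value was 0.61 (0.15 to 1.05).

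Marco showed the widest differences of all members, in both libraries. The library labelled liver had 10 UMIs in 88 vehicle macrophages, 311 in 73 at the low dose and 27 in 54 at the high dose, or 16.7 (7.99 to 30.7), 664 (592 to 742) and 96.9 (63.8 to 141) CPM. The library labelled spleen had 67, 2040 and 2173 UMIs, or 88.0 (68.2 to 112), 1345 (1287 to 1404) and 805 (772 to 840) CPM. The vehicle group was the lowest and the low dose group the highest in both libraries, and none of these intervals overlapped within a library. These intervals do not cover the weight of single barcodes, which is given below. Log2 ratios to vehicle were 5.32 (4.42 to 6.39) and 2.54 (1.45 to 3.75) in the library labelled liver, for the low and the high dose, and 3.93 (3.58 to 4.31) and 3.19 (2.84 to 3.57) in the library labelled spleen.

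Single barcodes weighed heavily on Marco. Of the library labelled spleen, 1 vehicle macrophage held 46 of the 67 UMIs. The leading low dose macrophages held 570 and 519 of the 2040 UMIs there and the next 130, and the leading high dose macrophage held 441. The 5 leading barcodes held 69.8% of the low dose and 45.4% of the high dose UMIs. The place of the low dose above the high dose in this library thus rests on few barcodes. It was not computed without both leading low dose barcodes. Without the leading barcode of every group the log2 ratios were 5.13 and 4.54 at the low and the high dose, and without that of the dosed group only they were 3.48 and 2.89. The highest values in the library labelled liver were 3, 57 and 14 UMIs, and the ratios without the leading barcode of every group were 5.53 and 2.0, or 5.03 and 1.5 without that of the dosed group only. Marco was past 2-fold in both libraries and at both doses under every one of the 12 alternatives computed for each ratio.

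More macrophages carried Marco as well. At least 2 UMIs were seen in 2 of 88 vehicle (2.27%, 0.276 to 7.97), 21 of 73 low dose (28.8%, 18.8 to 40.6) and 4 of 54 high dose macrophages (7.41%, 2.06 to 17.9) of the library labelled liver. The other library, labelled spleen, had them in 5 of 79 (6.33%, 2.09 to 14.2), 30 of 136 (22.1%, 15.4 to 30.0) and 41 of 160 (25.6%, 19.1 to 33.1). Thinned to 1000 UMIs, a Marco UMI was left in 3 of 79, 17 of 69 and 4 of 34 macrophages, and in 6 of 62, 30 of 128 and 31 of 160. Vehicle had the lowest share in both libraries. At 1000 UMIs its interval in the library labelled liver (0.79 to 10.7%) lay below the low dose interval (15.1 to 36.5%). It overlapped the high dose interval there (3.30 to 27.5%). The vehicle interval of the library labelled spleen (3.63 to 19.9%) overlapped both dosed ones (16.4 to 31.7% and 13.6 to 26.4%). At 2000 UMIs the library labelled liver kept 26.8% of 56 low dose macrophages, but 3.70% of 27 high dose against 3.57% of 56 vehicle ones. The order of the doses in the library labelled spleen turned with the depth, since thinning to 2000 UMIs left 21.9% at the low and 23.6% at the high dose, against 3.64% in vehicle. T and B cells had 0.376, 0.642 and 0.640 CPM of Marco in the former library and 9.57, 2.81 and 2.02 CPM in the latter, from 2 to 5 UMIs a group.

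**Figure D3:**
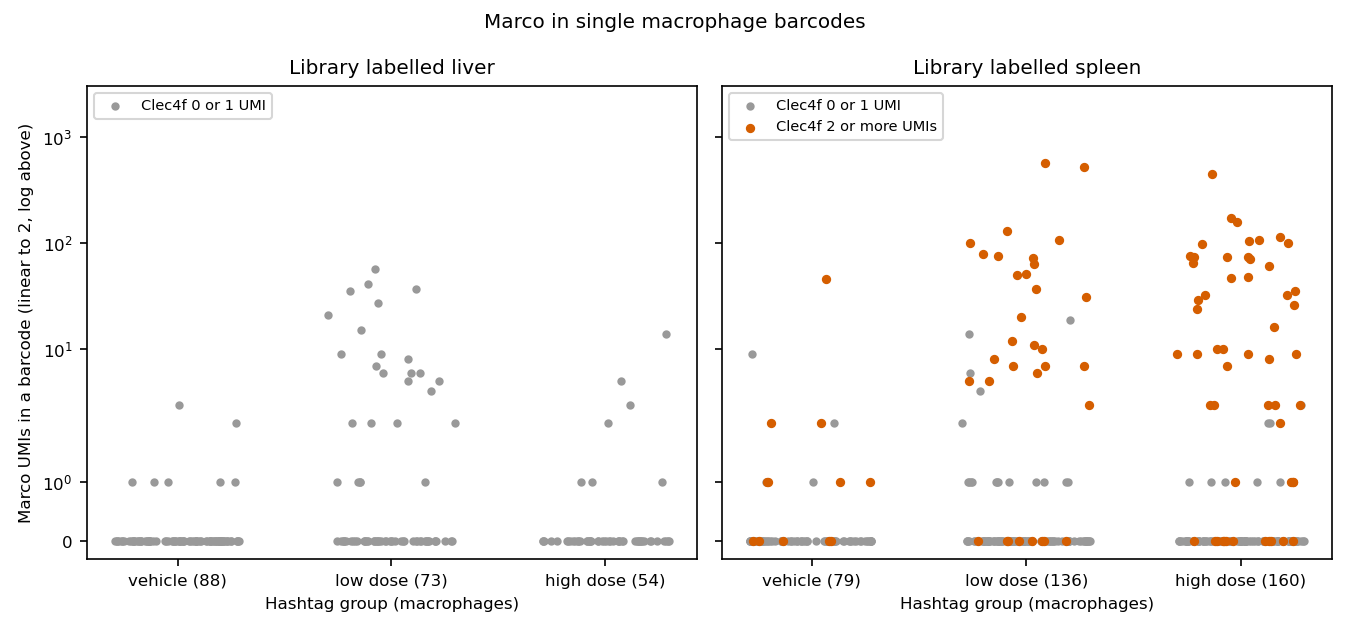
Marco UMIs in every macrophage barcode with a hashtag call, by group and library (vertical axis linear up to 2 and logarithmic above, points spread sideways at random), with barcodes of 2 or more Clec4f UMIs in orange. In the library labelled spleen high values sit mostly in the orange barcodes, while in the library labelled liver, without Clec4f, values of 10 or more were seen in 0, 7 and 1 barcodes of the vehicle, low and high dose groups.

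Cd163 was higher in both dosed groups of the library labelled spleen. It was at 59.1 (43.1 to 79.1), 164 (144 to 186) and 245 (226 to 264) CPM, with log2 ratios of 1.47 (1.01 to 1.97) and 2.05 (1.61 to 2.52). The vehicle value rests on 45 UMIs in 9 of 79 macrophages, and the leading barcode held 17 of them. Over the 12 alternatives the lowest low and high dose ratios were 0.62 and 1.38. The low dose ratio was past 2-fold in 10 of these and the high dose ratio in all 12. Thinned to 1000 UMIs, a Cd163 UMI was left in 8.06% (2.67 to 17.8), 10.2% (5.52 to 16.7) and 16.9% (11.4 to 23.6). These intervals overlapped. The library labelled liver had 33, 42 and 11 Cd163 UMIs, with log2 ratios of 0.70 (0.01 to 1.41) and -0.48 (-1.61 to 0.54). The high dose ratios thus had opposite signs, with an interval that held 0 in the library labelled liver.

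Mrc1 did not pass 2-fold in either library. It was at 420 (375 to 469), 287 (261 to 316) and 415 (391 to 440) CPM in the library labelled spleen, lower at the low dose (log2 ratio -0.55, -0.76 to -0.34) and near vehicle at the high dose (-0.02, -0.20 to 0.17). The library labelled liver had 248, 286 and 194 CPM, with intervals of both ratios that held 0. Without barcodes that carried markers of other classes, monocytes and dendritic cells aside, the high dose value turned upward (0.74, 0.12 to 1.34). Sinusoidal endothelial cells of the library labelled spleen had Mrc1 at 732 (576 to 918), 1324 (1192 to 1466) and 756 (666 to 855) CPM in 30, 83 and 91 barcodes, so the low dose was the highest there and the lowest in macrophages. Other genes of that endothelium did not all share this order in the same cells. Stab2, another endocytic receptor, was at 605, 1249 and 691 CPM, and Clec4g at 1952, 3406 and 2206 CPM. Lyve1 was at 664, 730 and 810 CPM, without a peak at the low dose. Stab2 and Lyve1 are markers of sinusoidal endothelium, so their levels there are not independent of the class.

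Set against all genes, the members were more often past 2-fold in the library labelled spleen. At the high dose 4 of 10 (Clec4f, Vsig4, Marco and Cd163) were past it upward, where 8.26% of 9439 genes were, and 0 were past it downward, where 2.09% were (10.4% in either direction). The members' median log2 ratio was 0.90 and that of all genes 0.05. At the low dose 5 of 10 (the same 4 and Timd4) were past it upward, where 5.29% of 8273 genes were, and 0 downward, where 1.54% were (6.83% in either direction), with medians of 0.96 and 0.05. Without macrophages that carried 3 or more markers of another class the counts were 2 at the high and 1 at the low dose. Both comparisons share the vehicle macrophages and are not independent.

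Marco alone was past 2-fold in the library labelled liver. At the high dose it was 1 of the 7 members with enough UMIs, where 6.91% of 5237 genes were higher and 6.76% lower (13.7% in either direction), and the medians were -0.35 for the members and 0.17 for all genes. At the low dose it was 1 of 8, where 4.66% of 5855 genes were higher and 3.69% lower (8.35% in either direction), with medians of 0.63 and 0.06.

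**Figure D4:**
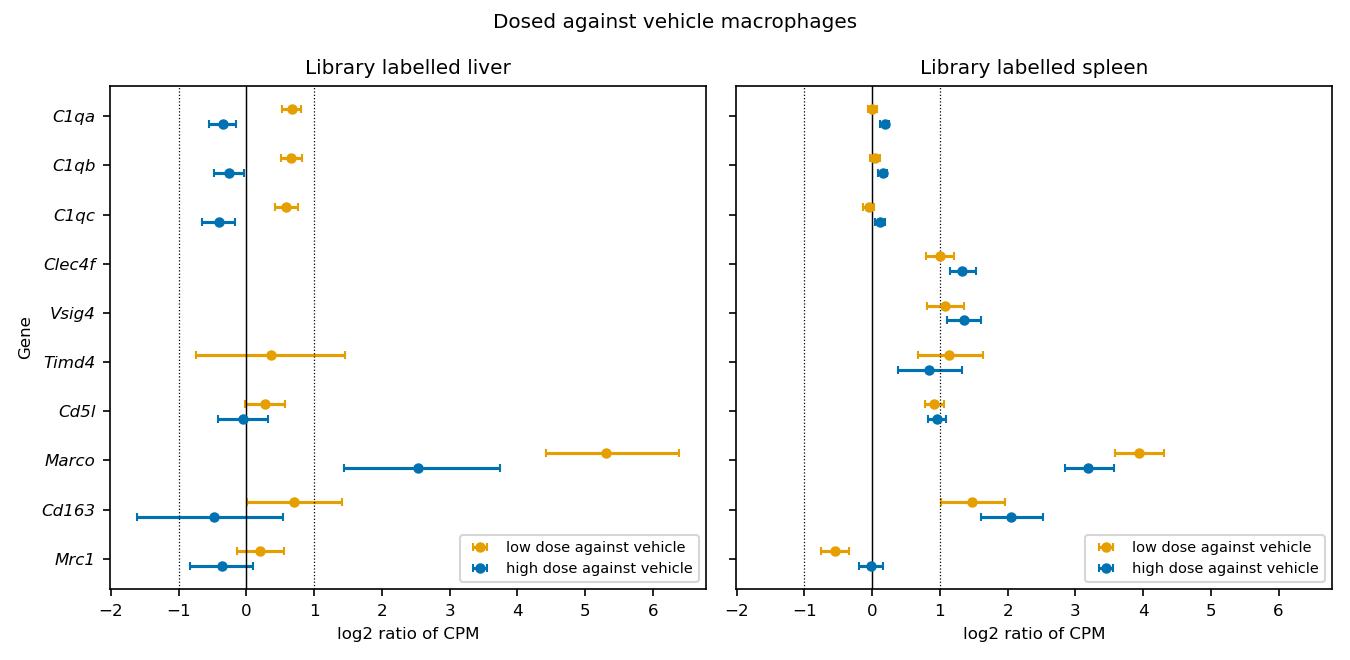
Log2 ratio of CPM in low dose and high dose macrophages to vehicle macrophages, with exact conditional 95% intervals (counting error only) and dotted lines at 2-fold. Genes with under 20 UMIs over both groups have no point. Marco lies to the right of the 2-fold line at both doses in both libraries, while the C1q genes lie within it.

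Vehicle macrophages of the library labelled spleen had more of 8 members than those of the library labelled liver, where 14.4% of 6731 genes were past 2-fold in that direction and 7.84% in the other (22.3% in either). The 8 include the C1q chains, whose levels follow in part from the class rule, so their count is only a description. Clec4f was at 326 CPM against 0 UMIs in the library labelled liver. This was 65.1-fold the level that 3 UMIs would give there, which is a set limit and no lower bound. The exact Poisson upper limit there was 6.15 CPM. Log2 ratios were 3.99 for Vsig4 (2.91 to 5.33), 2.40 for Marco, 1.18 for Timd4, 1.03 for Cd5l and 1.33 to 1.48 for the C1q chains. Cd163 (0.10, -0.58 to 0.80) and Mrc1 (0.76, 0.47 to 1.05) were not past 2-fold. Without macrophages that carried 3 or more markers of another class, C1qb turned to -0.16. Over the 10 alternatives the lowest ratios of C1qa and C1qc were 0.21 and 0.01, and the count of members past 2-fold ranged from 3 to 9. Tissue, digestion and library cannot be told apart in this comparison.

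The receptors were found together in the library labelled spleen. Of its 611 macrophages, 198 had at least 2 Clec4f UMIs, 188 at least 2 of Vsig4, and 157 at least 2 of both. Of the 139 with at least 2 Marco UMIs, 121 had at least 2 of Clec4f, and of the 106 with at least 2 of Cd163, 99 did. In the 198 barcodes Vsig4 was at 1936 CPM, Cd5l at 5263, Marco at 3707, Cd163 at 843, Timd4 at 396 and Mrc1 at 552. In the 370 with 0 Clec4f UMIs these were 16.9, 114, 16.7, 11.8, 27.1 and 296 CPM. C1qa was at 5424 and 3580 CPM, so it and Mrc1 differed less between these sets than the Kupffer cell receptors.

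These sets differed in other macrophage genes too. Adgre1, which encodes F4/80, was at 612 CPM in the barcodes with 2 or more Clec4f UMIs and 143 in those with 0. Spp1 (osteopontin) was at 24.2 and 844 CPM, Trem2, a lipid receptor of recruited macrophages, at 128 and 260, and the monocyte chemokine receptor Ccr2 at 59.8 and 219. The barcodes with 2 or more Clec4f UMIs were the shallower ones, with a median of 3159.5 UMIs against 8522. These sets pool the hashtag groups and barcodes without a group. Those with 2 or more Clec4f UMIs included 12 vehicle, 33 low dose and 54 high dose barcodes. Ccr2 was itself past 2-fold downward at the high dose in this library. Clec4f and dose therefore cannot be told apart in this split.

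The share of Clec4f-positive macrophages was highest at the high dose, where barcodes were also deepest. At least 2 Clec4f UMIs were seen in 12 of 79 vehicle (15.2%, 8.10 to 25.0), 33 of 136 low dose (24.3%, 17.3 to 32.4) and 54 of 160 high dose macrophages (33.8%, 26.5 to 41.6). With each barcode assigned to its dominant hashtag the shares were 13.5%, 24.3% and 39.2%. Thinned to 1000 UMIs, a Clec4f UMI was left in 16.1% (8.02 to 27.7), 25.8% (18.5 to 34.3) and 28.8% (21.9 to 36.4), and these intervals overlapped.

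Within these Clec4f-positive barcodes Marco was the member with the widest difference from vehicle in CPM of summed UMIs. It was at 1023 (769 to 1335), 8039 (7689 to 8401) and 2869 (2749 to 2993) CPM, with log2 ratios of 2.97 (2.58 to 3.39) and 1.49 (1.10 to 1.90). A Marco UMI was seen in 7 of 12, 25 of 33 and 42 of 54, with medians of 1, 10 and 9 UMIs and highest values of 46, 570 and 441. Scaled to the depth of each barcode, the medians were 635, 3577 and 1174 CPM. Those of Cd163 were 94.7, 924 and 621 CPM, a wider difference. Single barcodes weighed on the sums: 1 held 46 of the 54 vehicle UMIs, and 2 held 570 and 519 of the 1983 at the low dose. The groups overlapped, since barcodes with 0 Marco UMIs were found in each. The C1q chains, which the class rule used, did not move together. C1qb had log2 ratios of 0.45 (0.20 to 0.70) and 0.26 (0.02 to 0.50) at the low and the high dose. C1qa was at 0.05 and -0.15, and C1qc at 0.02 and -0.24 (-0.45 to -0.03 at the high dose). For the other members the scale matters too, because the barcodes had medians of 2924.5, 5009 and 11934.5 UMIs. Per barcode the median of Clec4f was 7, 17 and 37.5 UMIs and that of Cd5l 9, 36 and 53. As a share of UMIs they were not higher: at the high dose the log2 ratio of CPM was -0.65 for Clec4f, -0.53 for Vsig4, -0.79 for Timd4, -0.87 for Cd5l, -0.74 for Mrc1 and 0.09 for Cd163. At the low dose these lay between -0.52 for Mrc1 and 0.20 for Cd163. The vehicle values rest on 12 barcodes, which were chosen by Clec4f itself, by a split made after values were seen.

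Macrophages with under 2 Clec4f UMIs had far less of these receptors. Vsig4 was at 22.6, 14.2 and 18.0 CPM in their vehicle, low and high dose groups. Marco had 13, 57 and 13 UMIs there, against 54, 1983 and 2160 in the Clec4f-positive barcodes. Of the 13 in vehicle, 9 lay in 1 barcode, and of the 57 at the low dose 19 and 14 lay in 1 barcode each, so no direction is read from them.

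Marco was also seen without Clec4f, in the library labelled liver. Clec4f had 0 UMIs in every class there. The 41 macrophages with at least 2 Marco UMIs had 655 CPM of Spic, the factor of red pulp macrophages, and 3051 CPM of Hmox1, the heme oxygenase. The 265 with 0 Marco UMIs had 221 and 1005 CPM, and the 18 with 1 Marco UMI had 898 and 3923 CPM. Vcam1 was at 919 and 797 CPM, Cd5l at 408 and 333, and Mrc1 at 276 and 246 in the 41 and the 265. The 18 stood above both, at 3240, 1191 and 664 CPM. These sets pool the hashtag groups: of the 41, 21 were low dose, 4 high dose and 2 vehicle barcodes. Spic and Hmox1 were themselves past 2-fold upward at the low dose in this library. Marco and dose therefore cannot be told apart in this split. Of the 96 macrophages with at least 2 Mrc1 UMIs, 60 also had at least 2 of Cd5l.

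Macrophages made up 9.61% (79 of 822, 7.68 to 11.8), 10.5% (136 of 1301, 8.84 to 12.2) and 18.5% (160 of 865, 16.0 to 21.2) of the vehicle, low dose and high dose barcodes of the library labelled spleen. The high dose share was 8.89 points above vehicle (5.52 to 12.2). That difference was 0.981 points without macrophages that carried 3 or more markers of another class, and 1.80 points (-0.99 to 4.59) where monocyte and dendritic cell markers were allowed. High dose macrophages were the deepest, with a median of 15578.5 UMIs against 6669 in vehicle, and 63.1% of them carried such markers, against 39.2% in vehicle. Neutrophils, which made up 285 of 822 vehicle and 117 of 865 high dose barcodes, also weigh on the share: without them it was 14.7% and 21.4%.

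Macrophages of the library labelled liver made up 2.84% (2.28 to 3.48), 2.29% (1.80 to 2.87) and 2.53% (1.90 to 3.28) of the barcodes. The high dose share was 0.31 points below vehicle, with limits of -1.21 and 0.63. Neutrophils made up 1324 of the vehicle and 225 of the high dose barcodes, and without them the share was 4.95% (3.99 to 6.06), 3.67% (2.88 to 4.59) and 2.82% (2.13 to 3.67), lower at the high dose than in vehicle beyond counting error. With the dominant hashtag the difference over all barcodes was -1.21 points (-2.16 to -0.21). Without macrophages that carried 3 or more markers of a class other than monocytes and dendritic cells it was 0.05 points (-0.63 to 0.77). Over 8 alternatives it ranged from -1.21 to 0.49 points, so its sign did not hold.

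**Figure D5:**
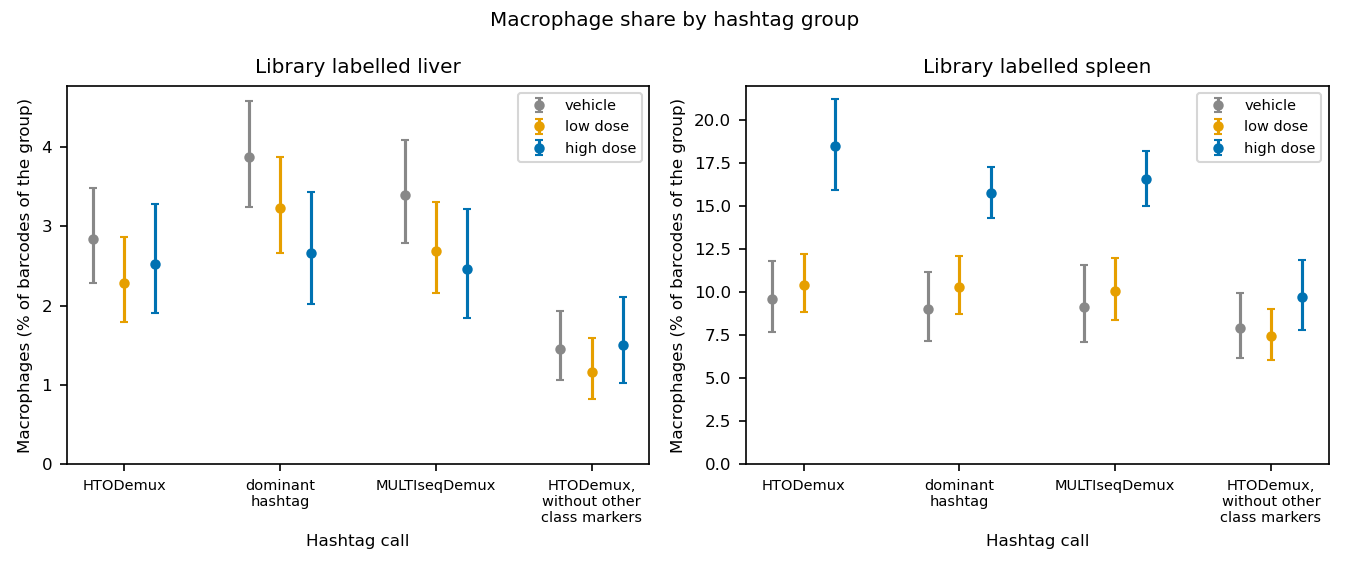
Macrophages as a percentage of the barcodes of each group, with exact 95% intervals, under 3 ways of calling hashtags and, at the right of each panel, without macrophages that carried 3 or more markers of a class other than monocytes and dendritic cells. In the library labelled spleen the high dose stands at 15.8 to 18.5% under the 3 calls and at 9.71% without those barcodes, against 7.91% in vehicle.

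Barcodes without a hashtag call matter for the high dose of the library labelled spleen. Of its 1627 such barcodes, 1532 had A0310 as the most abundant hashtag, as did 204 of their 205 macrophages. These macrophages were shallow (median 1621 UMIs) with a median of 10.1% mitochondrial UMIs, and held 1895 CPM of Clec4f, 1263 of Vsig4 and 1395 of Marco, above the 821, 472 and 805 CPM of the called high dose macrophages.

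Across 44 sums of library, group and class, the gene most like each of the members taken as leads was most often another member. Pearson correlations of log2(CPM + 10) over 10666 genes were highest for C1qa with C1qb (0.991), Cd5l (0.984) and C1qc (0.983), and for Marco with Cd5l (0.922), Timd4 (0.919) and Cd163 (0.914). Clec4f was most like Vsig4 (0.974), Ccl8 (0.948) and Siglec1 (0.922). Mrc1 was most like Itga9 (0.963), Fcgrt (0.959) and Sash1 (0.947). The class rule uses the summed C1q chains, so their likeness to each other is built in. The sums of a class share libraries and depth, and the values describe these data only.

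Other complement genes were mostly within 2-fold in macrophages of the library labelled spleen. Of 16 listed genes of the classical, alternative and lectin pathways, 10 had enough UMIs at the high dose in the library labelled spleen. Of these, 3 were past 2-fold upward, where 8.26% of all genes were. One was C2, which joins C4 in the C3 convertase (9.19 to 27.0 CPM). The others were the lectin pathway protease Masp1 (0 to 9.26) and the ficolin Fcna (193 to 446). At the low dose 2 of 8 were past 2-fold upward, where 5.29% of all genes were, C3 (84.0 to 198 CPM) and factor B, Cfb (91.9 to 264). In the library labelled liver, 2 of 6 were past it upward and 1 downward at the low dose, where 4.66% and 3.69% of all genes were. At the high dose 3 of 7 were past it upward and 0 downward, where 6.91% and 6.76% of all genes were. C3 and Cfb of that library were past 2-fold upward at the low dose (48.3 to 130 and 8.34 to 49.1 CPM) and at the high dose (to 96.9 and 64.6 CPM).

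Of 14 complement receptors and membrane regulators, 11 could be compared in the library labelled spleen. At the high dose 2 were past 2-fold upward (Cd55 and Cd59a), where 8.26% of all genes were. At the low dose 1 was, where 5.29% of all genes were. Cd55, which speeds the decay of C3 convertases, was past 2-fold at both doses, at 7.88, 66.6 and 56.7 CPM in vehicle, low and high dose macrophages. It had 21.7, 93.9 and 32.3 CPM in the library labelled liver, with a log2 ratio of 2.12 at the low dose. There it was 1 of 9 compared genes past 2-fold upward, where 4.66% of all genes were. C5ar1, the receptor for C5a, was at 93.4 CPM in vehicle and 25.1 at the high dose in that library, where neutrophil markers in macrophages were lower too. Of the 9 genes compared at the high dose there, Cr2, which B cells carry, was the only other past 2-fold, upward (8.34 to 82.5 CPM, log2 ratio 3.31), where 6.91% of all genes were higher and 6.76% lower.

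Of 13 other scavenger receptors, 11 and 12 could be compared at the high and low dose in the library labelled spleen. Stab2 and Lyve1 were past 2-fold upward at both doses, Olr1 at the low dose, the comparison in which it had enough UMIs, and Cd207 was past it downward at the high dose. Of all genes, 8.26% were past it upward and 2.09% downward at the high dose, and 5.29% upward at the low dose. Stab2 was at 9.19, 34.9 and 42.2 CPM and Lyve1 at 3.94, 24.4 and 73.0 CPM. Both are markers of sinusoidal endothelium, where they were at 839 and 817 CPM, and the part of that class in these values was not tested. Msr1, Cd68 and Scarb1 of this list were not past 2-fold at the high dose in either library. In the library labelled liver 6 of the 13 were compared at each dose. At the low dose 2 of them were past 2-fold downward, where 3.69% of all genes were, and at the high dose 0 were past it.

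Of 10 other Kupffer cell genes, all compared, 5 were past 2-fold upward at the high dose in the library labelled spleen, where 8.26% of all genes were, and 3 at the low dose, where 5.29% were, with medians of 0.99 and 0.92. Among those at the high dose were Slc40a1, the iron exporter (381 to 914 CPM), Folr2, a folate receptor (127 to 270), and Cdh5 (22.3 to 94.1), which is also an endothelial gene. Of 10 genes of monocyte-derived macrophages, all compared, Ccr2 was past it downward at the high dose (355 to 137 CPM) and Gpnmb upward (0 to 18.9 CPM). Of 10 apoptotic cell clearance genes, 9 of them compared, Mfge8 was past it upward (0 to 16.7 CPM) and Havcr2 downward (39.4 to 15.2 CPM), while the receptor Mertk was past it at neither dose. Of 10 macrophage transcription factors, all compared, Id1 (35.5 to 99.7 CPM) and Irf7 (112 to 224 CPM) were past it upward at the high dose. Of all genes, 2.09% were past it downward at that dose.

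Of 10 splenic macrophage genes, 7 could be compared in the library labelled liver, where Spic (162 to 388 CPM) and Hmox1 (799 to 1748 CPM) were past 2-fold upward at the low dose, where 4.66% of all genes were. Nr1h3 of the transcription factors, which encodes the LXR alpha receptor, was past it at both doses (43.3, 120 and 89.7 CPM). At the high dose Spic was at 237 and Hmox1 at 818 CPM, within 2-fold of vehicle. Vcam1 was past it downward (872 to 413 CPM), where 6.76% of all genes were. The splenic macrophage list was not higher in that library alone. In the library labelled spleen 3 of its 8 compared genes were past 2-fold upward at the high dose, where 8.26% of all genes were. At the low dose 2 of 8 were, where 5.29% of all genes were. The list medians there were 0.74 and 0.64.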

How the data were processed

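The 2 droplet libraries, each of 3 pooled hashtag groups, were analysed. The authors deposited UMI counts, untransformed, for each barcode and gene or hashtag, from filtered Cell Ranger matrices, without normalization or cell types. The matrix header names version 5.0.0, and the submitters' processing notes name version 6.0.0, mm10 and Seurat. The libraries held 79585807 and 35672251 UMIs over 9591 and 4830 barcodes, with medians of 4673 and 3368.5 UMIs a barcode. In macrophages, 5.25% and 36.3% of barcodes had 10% or more mitochondrial UMIs.

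Hashtags were called with HTODemux (Seurat 5.3.0, R 4.3.3, quantile 0.99), and hashtag doublets were left out of the group values. Doublets within a hashtag were not called, and barcodes with markers of another class were removed in an alternative. Barcodes with under 5 C1q UMIs took the class with most of its 6 markers detected, at least 3 being needed. For each class and group, UMIs were summed and set to a total of 1000000 (CPM). They were not divided by gene length, so levels are compared within a gene. Shares of barcodes with a UMI were also computed after thinning to 1000 UMIs, and 3 UMIs served as the limit for a gene not seen. Computations used scipy 1.17.1, numpy 2.4.6 and pandas 2.3.3 under Python 3.11.15, with figures by matplotlib 3.10.9, and the ratios were tested on simulated data. Cells were not treated as replicates, and no p-value was computed.

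The members and lists were chosen with earlier results of these data known. The text names the 10 members, genes of 8 lists past 2-fold or needed to describe a list, and the 3 genes most like C1qa, Clec4f, Marco and Mrc1. Splits of macrophages by Clec4f or Marco (2 UMIs or more) were made after values were seen. Alternatives were other hashtag calls, C1q cuts of 3 and 10 UMIs or 0.1% of UMIs, a cell filter (200 genes, under 10% mitochondrial UMIs), removal of barcodes with markers of another class, a mean over barcodes, CPM without the 20 most abundant genes and no minimum of UMIs. Others were added after seeing the data: removal of the leading barcode of a gene, and removal of barcodes with markers of a class other than monocytes and dendritic cells. Single genes of the lists are in part not reported here.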

Additional observations from a re-analysis of the deposited data

Results flagged for a closer look

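The C1q chains differed from vehicle in opposite directions at the high dose in the libraries. Log2 ratios were -0.35 and 0.18 for C1qa, -0.26 and 0.15 for C1qb and -0.40 and 0.12 for C1qc in the libraries labelled liver and spleen. Each library held 1 pooled sample per group, so the difference between the libraries was not tested. Over 12 alternatives the ratios ranged from -0.62 (C1qc) to 0.54 (C1qa) in the former and from -0.13 (C1qb) to 0.47 (C1qb) in the latter, so neither sign held throughout.

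Macrophages made up 13.7% (74 of 540, 10.9 to 16.9) of the barcodes without a hashtag call in the library labelled liver, against 2.84% of its vehicle barcodes. They had a median of 727 UMIs and 118 Marco UMIs (1785 CPM). Of the 74, 40 had A0305 as their most abundant hashtag, 29 had A0301 and 5 had A0310.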

How the results depend on the processing

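Marco stayed past 2-fold in all 12 alternatives of each ratio, at log2 ratios of 5.18 to 6.09 (low) and 2.0 to 4.25 (high) for the library labelled liver and of 2.59 to 7.31 and 1.85 to 6.36 for the one labelled spleen. Removal of the leading barcode of the dosed group only, not counted among them, gave 5.03 and 1.5 in the former. Of 517 alternative values of the members' ratios, 468 kept their sign, and of 211 values of ratios past 2-fold, 173 stayed past it. Among the latter, only C1qb between the vehicle groups of the libraries turned, to -0.158 without macrophages that carried 3 or more markers of another class.

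The counts of members past 2-fold moved as follows. For the high dose in the library labelled spleen, 4 became 2 without those macrophages and with a mean over barcodes. For the low dose there, 5 became 1 without them or with MULTIseqDemux and 2 with a mean over barcodes or when monocyte and dendritic cell markers were allowed. In the library labelled liver, 1 became 2 with a C1q minimum of 10 UMIs, of 0.1% of UMIs or no minimum of summed UMIs (high dose), and with a C1q minimum of 3 UMIs, without those macrophages or with a mean over barcodes (low dose). Between the libraries, 8 became 4 at 10 C1q UMIs and with a mean over barcodes, 3 at 0.1%, and 5 with the cell filter and without those macrophages. The high dose macrophage share minus vehicle moved to -1.21 points with the dominant hashtag in the library labelled liver, and to 0.981 without those macrophages and 1.80 with monocyte and dendritic cell markers allowed in the library labelled spleen. The cause of these changes was not tested.

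No paired analysis was possible because each group was 1 pooled sample per library. Vsig4 and Timd4 had only 7 and 41 UMIs in 324 macrophages of the library labelled liver, which limits their comparison between groups there.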

Other observations

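Tumor cells gave few member UMIs, and so did monocytes apart from Mrc1 in the library labelled spleen. The 104 barcodes with 4T1 tumor cell markers in the library labelled spleen had 17 UMIs of C1qa, 7 of Mrc1 and 3 of Marco, at a median of 29384.5 UMIs a barcode. Monocytes of that library (296 barcodes) had 44.0 CPM of Mrc1 and 8.64 of C1qa, and those of the library labelled liver (248 barcodes) 0.797 and 0.598. The 44.0 CPM came from 168 UMIs in 28 of the 296 barcodes, and 1 barcode held 48 of them. Neutrophils of the library labelled liver held 7.74% of its Marco UMIs, but 41 of these 49 UMIs lay in 1 of 3015 barcodes.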
